A study of Homo sapiens with 8 samples.

Results

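The genes described here are 10 receptor-type protein tyrosine phosphatases, PTPRH, PTPRJ, PTPRF, PTPRK, PTPRM, PTPRU, PTPRA, PTPRG, PTPRR and PTPRN2. They were found on the arrays through the RefSeq accession of each probe, which gave 17 probes out of 42405 non-control probes. Of these probes 16 had a mean of at least 3 on the log2 scale over all arrays, the threshold of the study's methods, and passed the filter, so that all 10 genes were among the 28876 genes tested. The genes were chosen with the difference between siGATA2 and siControl known, so their levels and differences are given as a description, with no test.

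LNCaP cells, a line established from a lymph node metastasis of human prostate cancer, were grown with 10% fetal bovine serum and transfected for 72 h with 30 nM of an siRNA against the transcription factor GATA2 (siGATA2) or of a scrambled siRNA (siControl). Total RNA of 4 replicates in each group was labelled with Cy3 and hybridised to 1-colour Agilent arrays, which gave 8 arrays on 1 slide. Slide row 1 held siGATA2 arrays 1 to 3 and siControl array 4, and row 2 held siGATA2 array 4 and siControl arrays 1 to 3. Row and group therefore largely coincide. The labels do not say whether replicates came from separate cultures, so p-values measure only the spread between these samples, which may be technical. The methods give a single catalogue number for each siRNA, so an effect of silencing and another effect of that siRNA product cannot be told apart. Values are processed signals, intensities corrected for background, on the log2 scale after quantile normalization, and each difference is siGATA2 minus siControl, between group means.

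Receptor-type tyrosine phosphatases span the plasma membrane and remove phosphate from tyrosines on receptors, adhesion proteins and kinases, and so oppose or, as with SRC family kinases, release kinase signalling. Their extracellular parts resemble those of adhesion molecules, with fibronectin type III repeats, immunoglobulin-like domains or a MAM domain, and several bind the same protein on a neighbouring cell. In epithelial cells many of them are found at cell-cell contacts, and several have been studied as growth suppressors.

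GATA2 itself was 12.61, 12.54, 11.57 and 11.40 on siGATA2 arrays 1 to 4 and 11.74, 11.28, 11.09 and 11.29 on siControl arrays 1 to 4. The means differed by 0.68 (standard error 0.313), for which limma gave an adjusted p = 0.155 and an exact two-sided permutation test p = 0.143. Over the alternative ways of processing given below, the difference ran from 0.03 to 0.89. It was 0.80 with array weights and 0.47 with a block for the letters in the array titles (adjusted p = 0.0312 and 0.0264 from limma), both under 2-fold. So no fall of GATA2 mRNA was detected and every direction below rests on the labels of the arrays. The study reports a marked fall of GATA2 protein in LNCaP cells given siGATA2, and the arrays measure RNA only. The arrays differed in quality, with 34381 to 36974 probes well above background on siGATA2 arrays and 24319 to 34819 on siControl arrays, where arrays 3 and 1 had the fewest, at 24319 and 28498. The luminal markers KLK3, KLK2, TMPRSS2, FOLH1, KRT8 and KRT18 were well above background on all 8 arrays, and KLK3 and KLK2 fell, with differences of -1.63 and -1.84 (adjusted p = 0.033 and 0.00382 from limma). TMPRSS2 differed by -0.13, FOLH1 by 0.43, KRT8 by 0.56 and KRT18 by 0.19, and these were not called. Of the blood cell markers PTPRC, CD3E, CD14 and CD68, the last, also a lysosomal protein of other cells, rose by 2.00 (adjusted p = 0.000606 from limma). CD3E and CD14 differed by -0.13 and -0.02 and were not called. PTPRC was higher on every siGATA2 array but under 2-fold, at 0.88 (adjusted p = 0.00142 from limma). The summed level of these 4 blood cell markers on the log2 scale was 10.12 to 10.36 with siGATA2 and 9.25 to 9.51 with siControl, and that of the 6 luminal markers 17.98 to 18.65 and 18.37 to 18.78. The 3 tested fibroblast markers summed to 8.68 to 9.70 and 9.01 to 9.90, and the 3 endothelial markers to 9.60 to 9.98 and 10.16 to 10.46, with none called. Of the latter, VWF was lower on every siGATA2 array but under 2-fold, at -0.96 (adjusted p = 0.00154 from limma). CDH5 and PECAM1 differed by 0.06 and -0.33, with overlapping groups. In bulk RNA, fewer cells of a type and less RNA per cell cannot be told apart. The part of these markers in the values below was not tested.

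PTPRH, also known as SAP-1, is a phosphatase of the apical membrane of gut epithelium and has an extracellular part made of fibronectin type III repeats. Its single probe (NM_002842) was 10.00, 10.45, 11.13 and 11.13 on siGATA2 arrays 1 to 4 and 6.10, 5.63, 5.47 and 5.58 on siControl arrays 1 to 4. Every siGATA2 array lay above every siControl array, and the gap between the lowest siGATA2 and the highest siControl array was 3.90. Before normalization the processed signal was 1010, 1400, 2440 and 2320 intensity units with siGATA2 against 47.9, 55.9, 34.2 and 48.8 with siControl. The probe passed background on every siGATA2 array and on 3 of 4 siControl arrays, the exception being array 3. The means were 10.68 ± 0.553 (SD, n = 4) and 5.70 ± 0.278 (SD, n = 4), a difference of 4.98 (standard error 0.283) or 31.6-fold. The size depends on how background is handled, as with normexp correction, whose offset shrinks the fold of dim probes, the difference was 3.84 or 14.3-fold. By size of rise PTPRH stood at rank 4 of the 28876 genes.

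**Figure D1:**
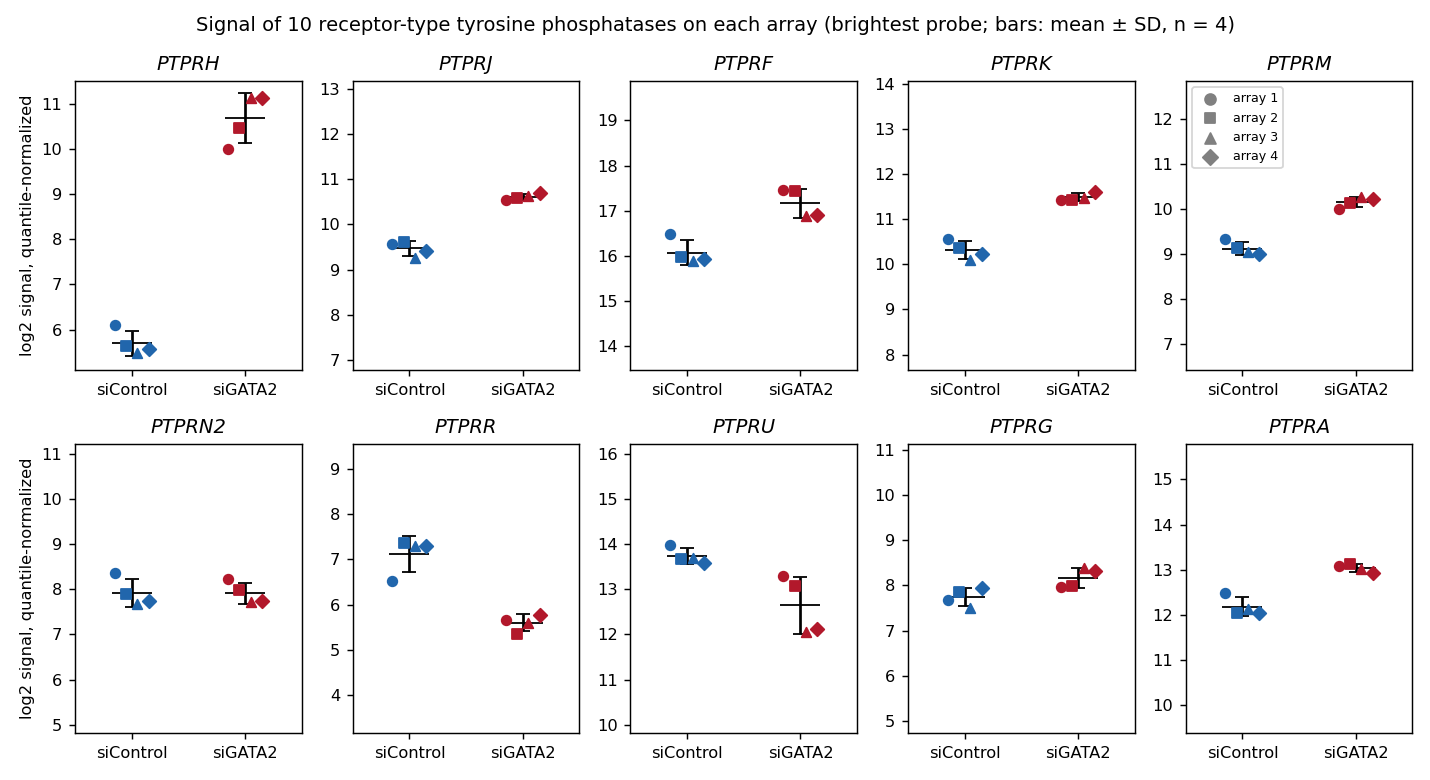
Log2 signal after quantile normalization (vertical axis, each panel spanning the same range) of the brightest probe of 10 receptor-type phosphatases on 4 siControl arrays (blue) and 4 siGATA2 arrays (red), with a symbol for each array number and bars for the mean ± SD. PTPRH stands apart by the distance between its groups, PTPRJ, PTPRF, PTPRK, PTPRM and PTPRA are higher and PTPRR and PTPRU lower on every siGATA2 array, and PTPRN2 overlaps.

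The sequences before the start of PTPRH, of PTPRK, which was higher with siGATA2, and of PTPRU, which was lower with siGATA2, are shown because the start of each is the outer end of its gene in RefSeq and because PTPRH differs from PTPRK and PTPRU in CG content. Each is the 250 bases before the start in the sense direction, from RefSeq on GRCh38.p14, with every CG dinucleotide in capitals. The windows are chr19:55209502-55209751 on the minus strand for PTPRH, chr6:128520600-128520849 on the minus strand for PTPRK and chr1:29236272-29236521 on the plus strand for PTPRU.
PTPRH: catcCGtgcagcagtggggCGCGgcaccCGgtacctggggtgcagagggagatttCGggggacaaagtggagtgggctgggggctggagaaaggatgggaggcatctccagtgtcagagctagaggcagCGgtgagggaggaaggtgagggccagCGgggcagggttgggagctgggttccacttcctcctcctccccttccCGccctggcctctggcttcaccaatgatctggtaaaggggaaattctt
PTPRK: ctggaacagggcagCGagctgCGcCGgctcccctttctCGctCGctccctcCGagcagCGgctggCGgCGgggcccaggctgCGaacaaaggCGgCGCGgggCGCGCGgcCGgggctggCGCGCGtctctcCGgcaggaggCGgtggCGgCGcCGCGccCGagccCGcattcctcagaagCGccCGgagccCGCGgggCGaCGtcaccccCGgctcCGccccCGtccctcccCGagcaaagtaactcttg
PTPRU: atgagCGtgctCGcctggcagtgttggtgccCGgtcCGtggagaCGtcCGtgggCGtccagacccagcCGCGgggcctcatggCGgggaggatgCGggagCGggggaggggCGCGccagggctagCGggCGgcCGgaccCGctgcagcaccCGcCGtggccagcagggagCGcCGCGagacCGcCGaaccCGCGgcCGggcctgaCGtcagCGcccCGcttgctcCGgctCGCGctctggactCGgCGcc
The PTPRH window held 8 CG dinucleotides, under the median of 11 over 35114 RefSeq promoter windows, of which 43.7% held fewer. PTPRA, also higher with siGATA2, had 7 before the start at the outer end of its gene and 27 before another start. The PTPRK window held 38 and the PTPRU window 36, and 96.7% and 95.2% of all windows held fewer than these. RefSeq windows were found for 8 of the 10 genes, 12 windows in all, and PTPRJ and PTPRN2 had none. GATA factors bind the letters GATA, and these were searched on both strands with A or T before them and A or G after them. Such a motif was absent from the 3 windows above and from all but 2 of the 12 windows, against 22.3% of all windows with a match. The 2 matching windows belonged to a downstream start of PTPRM, with 2 matches, and to a start of PTPRR inside its gene, with 1 match. These letters describe the windows only.

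PTPRJ, known as DEP-1 or CD148, resembles PTPRH in its extracellular repeats and dephosphorylates receptors such as MET. Its main probe (NM_002843) was 10.55, 10.58, 10.63 and 10.69 on siGATA2 arrays 1 to 4 and 9.57, 9.61, 9.26 and 9.42 on siControl arrays 1 to 4. The siGATA2 values lay close together, at 10.61 ± 0.0639 (SD, n = 4), and all were above siControl, at 9.47 ± 0.158 (SD, n = 4), a difference of 1.15 (standard error 0.111) or 2.22-fold. A probe for another transcript, NM_001098503, passed background on 2 of 4 siGATA2 arrays and 0 of 4 siControl arrays and was removed by the filter, so no fold is given.

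PTPRF, known as LAR, carries immunoglobulin-like domains and fibronectin repeats and binds liprins at focal adhesions and synapses. It was 17.46, 17.44, 16.89 and 16.90 on siGATA2 arrays 1 to 4 and 16.48, 15.98, 15.88 and 15.94 on siControl arrays 1 to 4. The groups did not overlap, with a gap of 0.41, but siGATA2 arrays 1 and 2 stood above arrays 3 and 4 and siControl array 1 above the other siControl arrays. Before normalization the processed signal was 136000, 140000, 130000 and 130000 intensity units with siGATA2 and 59000, 89700, 69000 and 76000 with siControl. The siGATA2 arrays were thus close before normalization, and siControl array 1 was then the lowest. The difference was 1.1 (standard error 0.203) or 2.14-fold, and 0.85 with scaling to the 75th percentile of each array, under the 2-fold threshold.

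PTPRK, PTPRM and PTPRU share a MAM domain, and PTPRK and PTPRM bind their own kind across cell contacts and act on catenins. They did not differ in 1 direction. PTPRK was 11.42, 11.43, 11.47 and 11.61 on siGATA2 arrays 1 to 4 and 10.56, 10.37, 10.10 and 10.23 on siControl arrays 1 to 4, a difference of 1.16 (standard error 0.125) or 2.24-fold with no overlap. PTPRM was 10.00, 10.14, 10.26 and 10.22 with siGATA2 and 9.33, 9.14, 9.04 and 9.0 with siControl, a difference of 1.03 (standard error 0.116) or 2.04-fold, also with no overlap. The call of PTPRM was lost in 5 of 25 alternatives, among them normexp, at 0.93, the removal of siGATA2 array 3, at 1.00, and that of siControl array 4, at 0.99. PTPRU was the reverse, at 13.30, 13.07, 12.06 and 12.13 on siGATA2 arrays 1 to 4 against 13.98, 13.67, 13.70 and 13.58 on siControl arrays 1 to 4. Its siGATA2 arrays fell into a higher pair, arrays 1 and 2, and a lower pair, arrays 3 and 4, and the spread of 0.640 (SD, n = 4) was the highest of any member's main probe in either group. The difference of PTPRU was -1.09 (standard error 0.302) or 2.13-fold lower, and its call was lost in 11 of 25 alternatives, among them 6 of the 8 in which 1 array was left out.

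PTPRA has a short glycosylated extracellular part and activates SRC family kinases by removing an inhibitory phosphate. It was 13.08, 13.13, 13.01 and 12.93 on siGATA2 arrays 1 to 4 and 12.49, 12.05, 12.14 and 12.05 on siControl arrays 1 to 4. The groups did not overlap, and the difference was 0.85 (standard error 0.130) or 1.81-fold, short of the 2-fold threshold. PTPRG, whose extracellular part has a carbonic anhydrase-like domain, was 7.96, 7.99, 8.38 and 8.31 with siGATA2 and 7.68, 7.86, 7.49 and 7.94 with siControl. Its groups nearly touched, with a gap of 0.03, and the difference was 0.42 (standard error 0.152).

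PTPRR binds MAP kinases through a kinase interaction motif and dephosphorylates them. Its main probe (NM_002849) was 5.65, 5.35, 5.6 and 5.78 on siGATA2 arrays 1 to 4 and 6.52, 7.37, 7.29 and 7.30 on siControl arrays 1 to 4. All siGATA2 arrays lay below all siControl arrays, of which array 1 was the lowest, and the difference was -1.52 (standard error 0.209) or 2.87-fold lower. Before normalization the processed signal was 62.2, 52.2, 47.7 and 55.0 intensity units with siGATA2 and 64.1, 187, 151 and 161 with siControl, so that siControl array 1, which was dim as a whole, was close to the siGATA2 arrays. With normexp correction the difference was -0.82, less than 2-fold. PTPRN2, a protein of dense-core secretory vesicles with little activity on phosphotyrosine, was 8.22, 7.98, 7.71 and 7.74 with siGATA2 and 8.36, 7.89, 7.68 and 7.74 with siControl. Its groups overlapped throughout and the difference was -0.01 (standard error 0.190).

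Counted by gene, 5 of the 10 members, PTPRH, PTPRJ, PTPRF, PTPRK and PTPRM, were higher by at least 2-fold with an adjusted p under 0.05 from limma, where 4.51% of all genes tested were. The members lower by the same rule were PTPRR and PTPRU, 2 of 10, where 7.09% of all genes were. With siControl arrays 2 and 4 as the only controls, 5 members were higher and 1 was lower. The median difference was 0.94 over the members and 0.09 over all genes. Among all genes called, 61.1% were lower, 93.1% under E1A spike-in scaling and 71.3% under that scaling without siControl array 1, whose spike-in signal was low. In 7 members every siGATA2 array lay above every siControl array, which held for 16.2% of all genes, and in 2 every siGATA2 array lay below, which held for 16.3%. As the members were chosen on this contrast, nothing is read from these shares.

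Within the siGATA2 group the arrays formed pairs that follow the letters in their titles, whose meaning the labels do not give. Arrays 1 and 2 are lettered A and B and arrays 3 and 4 E and F. Of the members PTPRU differed most between these pairs, the mean of A and B being 1.1 above that of E and F, and PTPRH went the other way, by -0.90. PTPRF was 0.56 higher in A and B after normalization, though its siGATA2 arrays were close before it. PTPRJ, PTPRK, PTPRM and PTPRA differed by at most 0.17 in either direction. In siControl, array 1 is the only one lettered B and the others are D, F and G. Compared within letters A and B, which leaves a single siControl array, the difference of PTPRH was 4.13, and within D to G it was 5.57. That single array is siControl array 1, whose spike-in signal was low, so letters and array quality cannot be told apart here. For PTPRU the same values were -0.79 and -1.56, for PTPRR -1.02 and -1.63, and for PTPRF 0.97 and 0.96. All 10 members had the same sign in both sets of letters, which is a description only, as they were chosen on this contrast. For PTPRN2, at -0.27 and -0.05, the sign is no direction, as its groups overlapped. Its difference was 0.28 with the mean over probes.

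**Figure D2:**
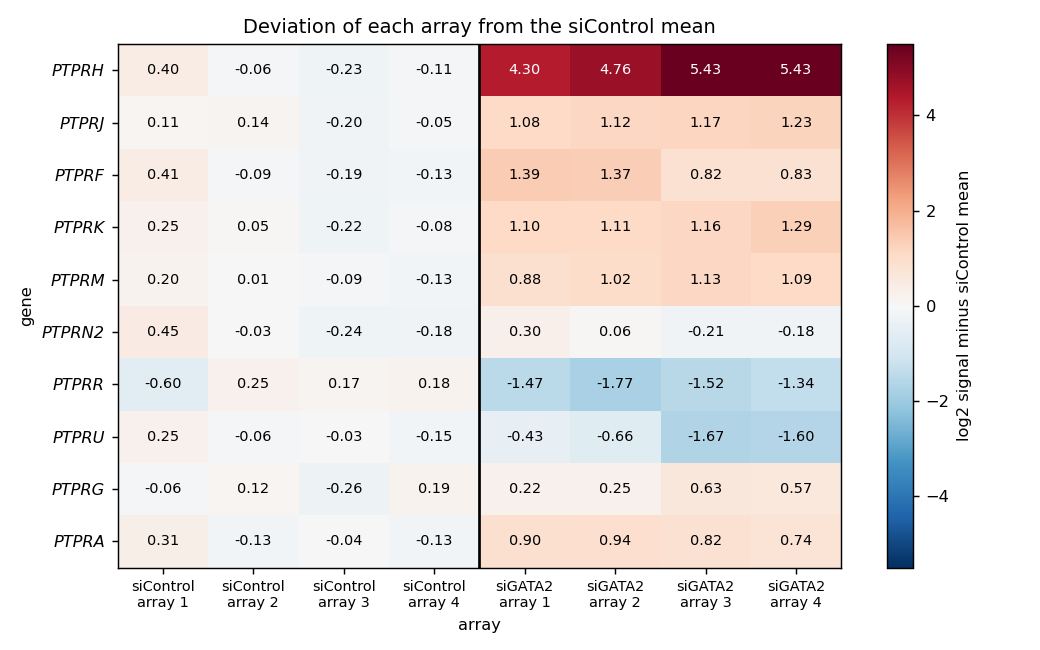
Log2 signal of each array minus the siControl mean of the gene, for 10 genes (rows) on 4 siControl and 4 siGATA2 arrays (columns), with red above and blue below the mean. PTPRH is 4.30 to 5.43 above the siControl mean on the siGATA2 arrays, PTPRU is lowest on siGATA2 arrays 3 and 4, and siControl array 1 deviates by -0.60 for PTPRR.

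The array held more than 1 probe for 6 of the genes, and these probes did not always give the same size. PTPRK, at 1.16 by its main probe, was 0.22 (standard error 0.183) and 0.52 (standard error 0.151) by the others, which carry the same accession, so the difference above 2-fold rests on 1 of 3 probes. The 0.22 probe overlapped between groups, being 6.94, 7.09, 7.14 and 7.09 with siGATA2 and 6.30, 7.03, 7.07 and 6.95 with siControl. PTPRU was lower by both its probes, at -1.09 and -0.77 (standard error 0.220), but by the second its groups nearly touched, with a gap of 0.01. Before normalization that second probe was 291 intensity units on siControl array 1, below 471 and 451 on siGATA2 arrays 1 and 2. PTPRG was higher by both its probes, at 0.42 and 0.72 (standard error 0.391), although only 2 of 4 siControl arrays had the latter well above background. The dimmer PTPRN2 probe was 0.58 higher (standard error 0.283) with overlapping groups and passed background on 2 of 4 siControl arrays. The other PTPRR probe was near background, with 0 of 4 siGATA2 and 2 of 4 siControl arrays well above it, so no fold is given. PTPRH, PTPRF, PTPRM and PTPRA were measured by a single probe each.

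**Figure D3:**
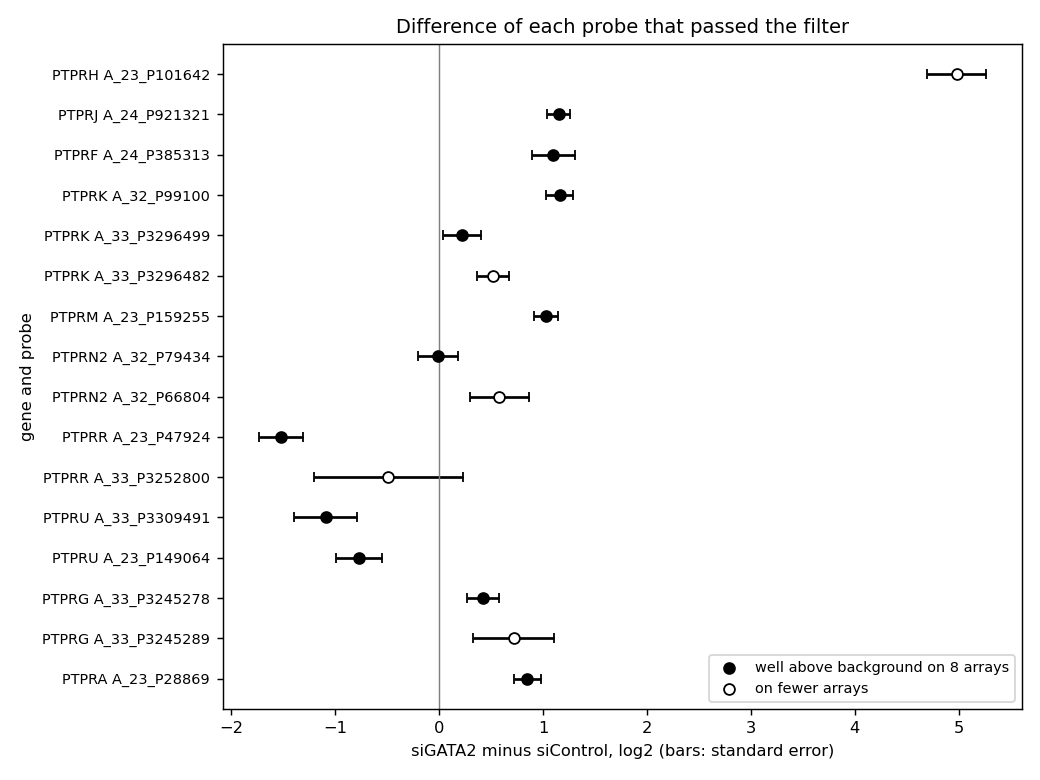
Difference between siGATA2 and siControl on the log2 scale (horizontal axis) of the 16 probes that passed the filter, with bars for the standard error of limma; filled points were well above background on all 8 arrays and open points on fewer. The main probe of PTPRK lies at 1.16 and its other probes at 0.22 and 0.52, and the open PTPRR point at -0.49 has the widest bar.

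PTPRH kept its call under all 25 alternatives, which is a description only, as PTPRH was chosen on this contrast. It has a single probe, so the other filters and the mean over probes left its difference at 4.98, as did the deposited values. E1A spike-in scaling left PTPRH as the only member called higher. The median difference of all genes was 0.09 after quantile normalization, 0.18 after 75th percentile scaling and -0.43 after scaling to 7 E1A spike-in probes, whose mean log2 signal was 11.13 on siControl array 1, against 13.45 to 13.83 elsewhere. With spike-in scaling PTPRH differed by 4.56, while PTPRJ, PTPRF, PTPRK and PTPRM differed by 0.57, 0.25, 0.56 and 0.48 and were not called. PTPRR and PTPRU were then at -1.91 and -1.79, and PTPRG, higher by 0.42 after quantile normalization, turned to -0.04. Relative to the median of all genes under that scaling, PTPRH was at 4.99, PTPRJ at 1.00, PTPRK at 0.99, PTPRM at 0.91 and PTPRF at 0.68, and PTPRR and PTPRU at -1.48 and -1.36. Spike-in and 75th percentile scaling each shift a whole array by a constant. Values relative to the median are therefore the same under both and are no separate check of spike-in scaling. Without siControl array 1, which was tried only after the data were seen, spike-in scaling gave 3 members called higher in place of 1, PTPRF being at 0.78 and PTPRM at 0.98.

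**Figure D4:**
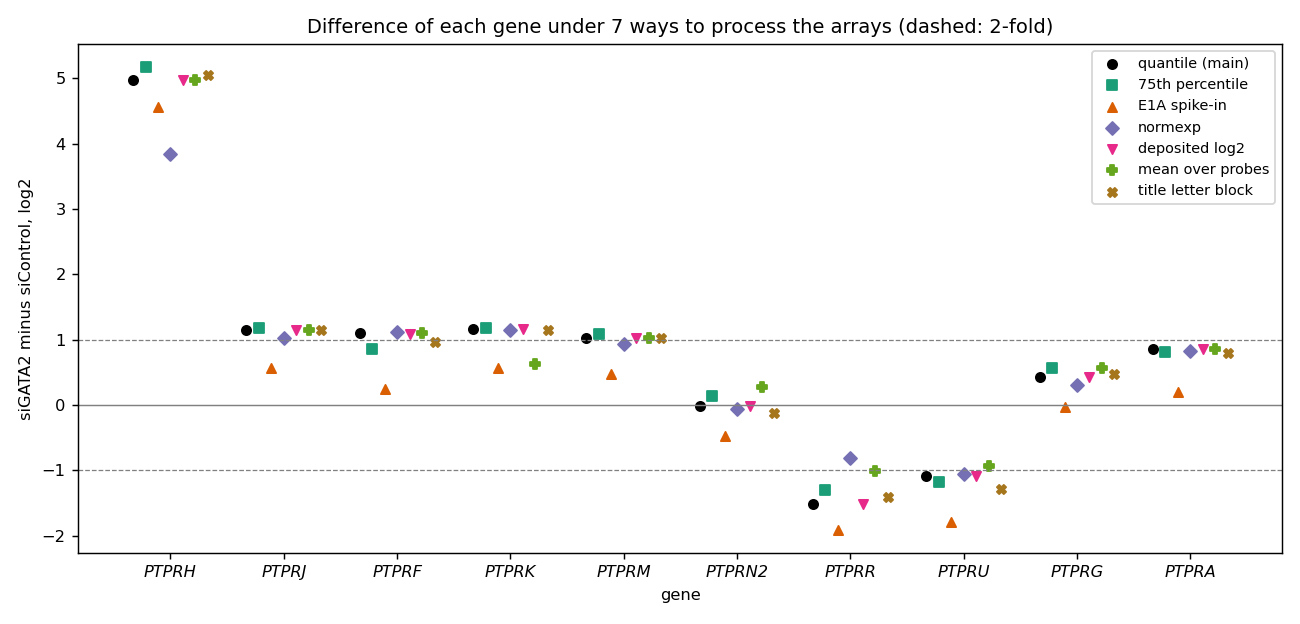
Difference between siGATA2 and siControl on the log2 scale (vertical axis) for 10 genes under 7 ways to process the arrays, with dashed lines at 2-fold. PTPRH lies between 3.84 and 5.17, E1A spike-in scaling gives the lowest value of every gene except PTPRH, and PTPRR is closest to 0 with normexp, at -0.82.

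The pattern of PTPRH over the 8 arrays was most like that of PTPRM among the members (Pearson r = 0.993) and most opposed to that of PTPRR (r = -0.945), and it was least related to PTPRN2 (r = -0.0448). Among 13276 other genes with a symbol and a probe well above background on all 8 arrays, the highest correlations were those of DNAJB2 and BMERB1, both at 0.999, and of MVP, LTC4S and LRRC73, all at 0.998. Their differences were 1.33, 1.58, 3.15, 2.14 and 1.24, each above 0. The arrays share the same 2 groups, so these values mostly restate the difference between groups and are a description over 8 points.

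The other tyrosine phosphatases and the proteins the receptors work with were taken from fixed lists. Of 80 genes on 4 lists 71 were tested, of which 5 rose and 7 fell by at least 2-fold with an adjusted p under 0.05 from limma, that is 7.04% and 9.86%, beside 4.51% and 7.09% of all genes. Of the 10 other receptor phosphatases 7 were tested, none rose and 1 fell, with a median difference of 0.29. That gene was PTPRQ, a phosphatase of inner ear hair cells that also acts on phosphoinositides. It was 3.10, 4.06, 4.08 and 3.27 on siGATA2 arrays 1 to 4 and 6.52, 7.43, 7.08 and 7.38 on siControl arrays 1 to 4, a difference of -3.48 (standard error 0.303, adjusted p = 0.000136 from limma), and on 2 of 4 siGATA2 arrays the probe was well above background. PTPRC, the leukocyte antigen CD45, was above siControl on every siGATA2 array but below 2-fold, at 0.88 (adjusted p = 0.00142 from limma). PTPRB, PTPRD and PTPRZ1 were removed as too dim, and PTPRE, PTPRS and PTPRN, at 0.29, 0.30 and -0.33, were not called.

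Of the 17 cytoplasmic (non-receptor) tyrosine phosphatases 15 were tested, 2 rose and none fell, with a median difference of 0.19. PTPN21, which binds membranes and the cytoskeleton through a FERM domain, was 8.36, 8.45, 9.66 and 9.64 on siGATA2 arrays 1 to 4 and 5.27, 7.0, 6.39 and 6.84 on siControl arrays 1 to 4, a rise of 2.65 (standard error 0.472, adjusted p = 0.00446 from limma). In siControl its signal passed background on 2 of 4 arrays. PTPN6, known as SHP-1, rose by 1.11 (standard error 0.117, adjusted p = 0.000331 from limma). PTPN1 and PTPN11, which encode the widely expressed PTP1B and SHP2, differed by -0.14 and 0.03 and were not called.

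Among ligands, adhesion partners and binding proteins of the receptors 23 of 26 were tested, 2 rose and 4 fell, with a median of 0.05. SLITRK3, a synaptic adhesion protein that binds receptor phosphatases of the PTPRF kind, was 9.42, 9.24, 8.32 and 8.46 with siGATA2 and 12.13, 11.76, 11.70 and 11.69 with siControl, a difference of -2.96 (adjusted p = 0.000172 from limma). IL1RAPL1, another partner of these phosphatases, fell by 1.26 and the heparin-binding growth factor MDK fell by 1.27 (adjusted p = 0.00583 and 9.08e-05 from limma). SDC4, a syndecan of focal adhesions, rose by 1.25 and CNTN4, a contactin that binds PTPRG, by 1.06 (adjusted p = 0.000665 and 0.0224 from limma). In siControl the CNTN4 signal passed background on 2 of 4 arrays. In place of 2, 1 gene of the list was called higher under normexp, array weights, a block by replicate number or slide row, with siControl arrays 2 and 4 only and without siGATA2 array 2, 3 or 4 or siControl array 3, and 0 under spike-in scaling. The fourth gene that fell, outside the rule for named genes, was the glypican GPC6, at -1.24 (adjusted p = 0.000215 from limma).

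Of 27 proteins known as substrates of tyrosine phosphatases 26 were tested, 1 rose and 2 fell, with a median of 0.08. ERBB2, a receptor kinase, was 15.35, 15.37, 14.74 and 14.70 on siGATA2 arrays 1 to 4 and 13.82, 12.85, 12.96 and 12.87 on siControl arrays 1 to 4, a rise of 1.91 (standard error 0.273, adjusted p = 0.00149 from limma). The receptor kinases PDGFRB and MET fell and had differences of -2.83 and -2.55 (adjusted p = 0.000803 and 9.14e-05 from limma), and the PDGFRB signal passed background on 2 of 4 siGATA2 arrays. Without the condition of 2-fold, 8 substrates were higher and 3 lower at an adjusted p under 0.05 from limma, of 26 tested, beside 12.3% and 14.1% of all genes.

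**Figure D5:**
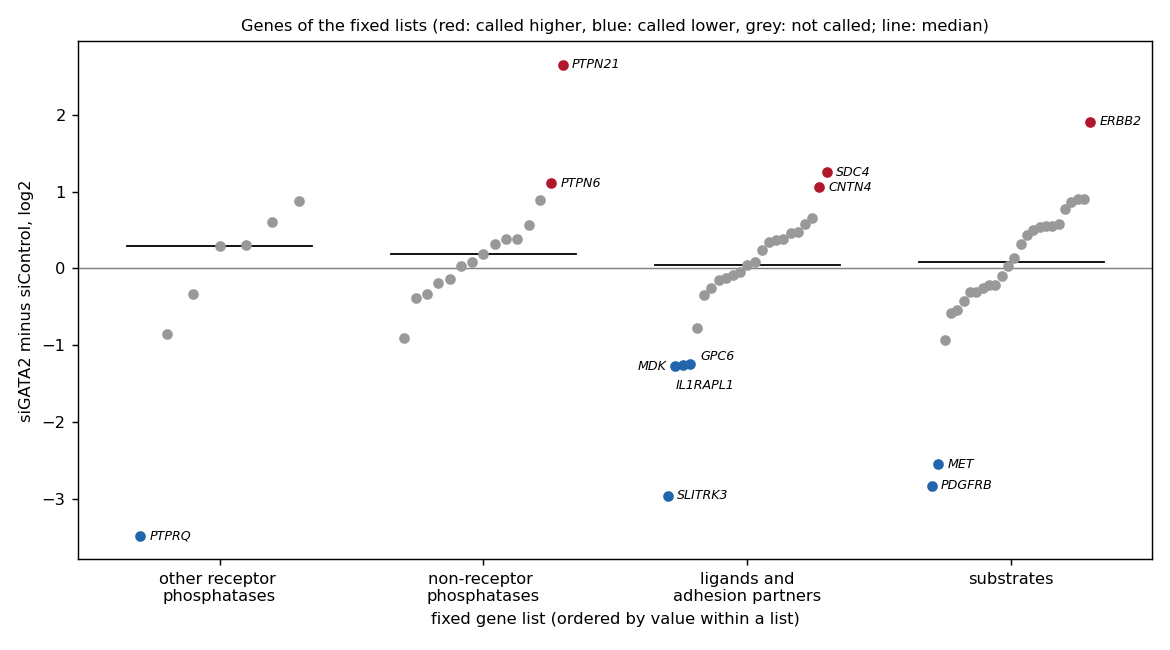
Difference between siGATA2 and siControl on the log2 scale (vertical axis) of the tested genes of 4 fixed lists, ordered by value within a list, with called genes in colour and the median as a line. PTPRQ is lowest among the other receptor phosphatases at -3.48, PTPN21 highest among the non-receptor phosphatases at 2.65, and the 4 medians lie between 0.05 and 0.29.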

How the data were processed

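LNCaP RNA was measured 72 h after transfection with 30 nM siGATA2 or siControl on 4 arrays per group, grouped and numbered as the labels give them. The authors deposited spot intensity from Feature Extraction 11.0.1.1 (processed signal, median signal, local background and 0 or 1 flags, which leave out outlier spots) as well as a log2 matrix. These deposited log2 values had a median of 7.45 on every array and correlated with the processed signal of their own array at 0.985 or more. They were used as an alternative. The methods name quantile normalization and a design that differs from the one in the array files. Scale and direction of the deposited matrix were settled by that correlation, and its base-line offset is unknown.

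The log2 processed signal of each probe was the mean of its unflagged spots (of all spots where each was flagged, which touched no member), quantile-normalized over 8 arrays. A probe was well above background where no fewer of its spots passed that flag than failed it. Of 42405 probes 26364 matched a symbol through RefSeq GRCh38.p14, used for names only, 1914 without annotation and those with a mean under 3 were removed, and each gene was read from its brightest probe. Groups were compared with limma 3.58.1 in R 4.3.3, fitted over all 28876 genes, where the methods used a t-test. Called genes had a Benjamini-Hochberg adjusted p under 0.05 and a fold of at least 2. The test was checked on simulated data.

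The members and lists were chosen with earlier results of these data known. Named are the members, GATA2, up to 3 called genes with the largest fall and rise in each list if detected on each array of 1 group or both, the 5 genes most correlated with PTPRH and the members most and least correlated with it. Other genes of the lists were named after their values were seen. Some marker genes are not reported here. No protein sequences were used here. Alternatives were other scalings, normexp background correction with an offset of 50 on the median signal, the deposited values, other filters, the mean over probes, the methods' t-test, an intensity trend, array weights, blocks by replicate number, title letter and slide row, and leaving out arrays. Arrays have no read depth, and their number limits precision.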

Additional observations from a re-analysis of the deposited data

Results flagged for a closer look

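Of 34 groups of 4 arrays examined for the members' probes and GATA2, 3 had an array far from the others, where chance gives about 1 in 20. The main PTPRR probe was 6.52 on siControl array 1, while its 3 fellow arrays lay at 7.29 to 7.37. The gap made up 0.915 of the range in the group. Without that array the difference of PTPRR was -1.72. A PTPRK probe (A_33_P3296499) was 6.30 on siControl array 1 and 6.95 to 7.07 on the others, a gap of 0.850 of the range. The dimmer PTPRG probe (A_33_P3245289) was 2.99 on siControl array 3 and 4.55 to 4.75 on the others, with arrays 1 and 3 not well above background, a gap of 0.885 of the range.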

How the results depend on the processing

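Over 25 alternatives PTPRH, which was chosen on this contrast, stayed called higher, with differences from 3.84 (normexp) to 5.21 (without siGATA2 array 1). Members called higher numbered 1 with E1A spike-in scaling and 3 with that scaling and siControl array 1 left out, against 5. Members called lower numbered 0 with the mean over probes and 1 with normexp, the methods' t-test, array weights, slide row as a block or siControl arrays 2 and 4 only, against 2. Genes called higher numbered 139 with spike-in scaling, 1099 with that scaling and siControl array 1 left out, 817 with normexp and 2068 with array weights, against 1303. Without a fold threshold 3558 genes were higher and 4060 lower. Fixed list genes called higher numbered 1 with spike-in scaling, 3 with that scaling and siControl array 1 left out, 8 with a block for the title letters (A or B, against the later letters) and 16 without a fold threshold, against 5. The causes were not tested, apart from the threshold. With 1 array left out, PTPRH was 4.83 to 5.21, GATA2 0.49 to 0.89, members higher 4 to 5 and lower 1 to 2, genes higher 1116 to 1545 and lower 1893 to 2167, and fixed list genes higher 4 to 6 and lower 7 to 9. No gene called in 1 direction was called in the other under any alternative. The letter block and spike-in scaling without siControl array 1 were chosen after the data were seen.

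Whether replicate numbers carry a pairing was not settled. Deviations of same-numbered arrays correlated across genes at 0.52, -0.30, 0.16 and 0.18, and arrays with different numbers were not compared. With the replicate block 5 members were higher and 2 lower, PTPRH differed by 4.98 and GATA2 by 0.68, and 2068 genes were lower and 1533 higher. Signal over background limits PTPRH in siControl and the dim probes of PTPRG, PTPRN2 and PTPRR.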
